A study of Mus musculus with 24 samples.

Results

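The 2 libraries of Lys-GFP-ER-HoxA9 cells kept for 8 h without estradiol were set against the 2 libraries kept for 4 h without it, which makes 4 of the 24 libraries of the series. The libraries were assigned to the 2 groups by their time label alone. The comparison itself was chosen with earlier results of these data known. Lys-GFP-ER-HoxA9 is a mouse cell line on a C57Bl/6 background that carries HoxA9 joined to the hormone-binding part of the oestrogen receptor, so that estradiol in the medium keeps the fusion active. It also carries GFP at the lysozyme locus as a reporter of myeloid maturation. Both groups grew in RPMI1640 with 10% FBS, stem cell factor and 0.5 uM beta-estradiol, and were then cultured with the estradiol taken away, for 8 h in one group and for 4 h in the other. All 4 libraries are therefore withdrawal libraries, and none of them is an untreated control. The rest of the course, 2 libraries at each of 0, 12, 24, 36, 48, 72, 96 and 120 h, entered the statistical fit and is described here only beside genes of this comparison. The labels do not say whether the line is 1 clone or whether the replicates were separate cultures, so p-values measure the spread between these libraries, which may be technical.

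HoxA9 is a homeobox transcription factor that holds haematopoietic progenitors in an immature, self-renewing state, and its forced expression is a common route to myeloid leukaemia. Together with cofactors such as MEIS1 it binds enhancers also used by myeloid and lymphoid regulators. When its activity is lost, immortalised progenitors stop self-renewing and mature along the granulocyte and macrophage lineages, with primary granule proteins first and secondary granule and adhesion proteins later.

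Poly-A selected RNA gave 40902657 and 37911830 counts on genes in the 8 h libraries and 43908971 and 44338247 in the 4 h libraries. Of these counts 0.959% to 1.14% lay on mitochondrially encoded genes and 4.55% to 4.78% on the top 10 genes, and 17374 to 17753 genes had at least 1 count. Each level is in CPM, which puts every library on the same total after TMM scaling for composition. The libraries are called A and B after their column letters. Between A and B, log2 CPM correlated across genes at r = 0.996 at 8 h and 0.995 at 4 h, but the median absolute log2 difference was 0.0832 at 8 h and 0.191 at 4 h, so the 4 h pair was the wider one. Genes are not independent replicates in these 2 correlations. Markers of an immature myeloid cell were abundant in all 4 libraries: Kit, the stem cell factor receptor, Cd34, Mpo, Spi1 and Cebpa ranged from 84.6 CPM (Spi1, 4 h B) to 4466 CPM (Mpo, 8 h B). Of 18 T and NK cell genes, 9 had no count. The 7 with enough counts to be tested summed to 6.56 and 6.95 CPM at 8 h and to 9.02 and 7.88 CPM at 4 h. Lyz2, whose locus carries the GFP reporter, had no read in any of the 4 libraries.

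Of 14615 genes tested, 1811 (12.4%) were called at an adjusted p under 0.05 in edgeR's quasi-likelihood test, with Benjamini-Hochberg adjustment over all genes tested. Of these, 1074 (7.35% of those tested) were higher at 8 h and 737 (5.04%) were lower. Most changes were modest. The median log2 change was 0.63 among the genes called higher and -0.54 among those called lower, 456 called genes differed by at least 2-fold (283 higher, 173 lower) and 106 by at least 4-fold (61 higher, 45 lower). Over all genes tested the median log2 change was -0.0012, and the median standard error (SE) was 0.13 on the log2 scale. At an unadjusted p under 0.05 there were 3751 genes. Both 8 h libraries lay on one side of both 4 h libraries in 8244 of the 14615 genes tested and in all 1811 called. The number of calls depended on single libraries: it was 794 when 8 h A was left out, 879 for 8 h B, 1740 for 4 h A and 812 for 4 h B, with the lone library of a time assumed to vary like the other times. All 4 libraries come from whole cultures, in which fewer cells of a type and less RNA per cell cannot be told apart.

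**Figure D1:**
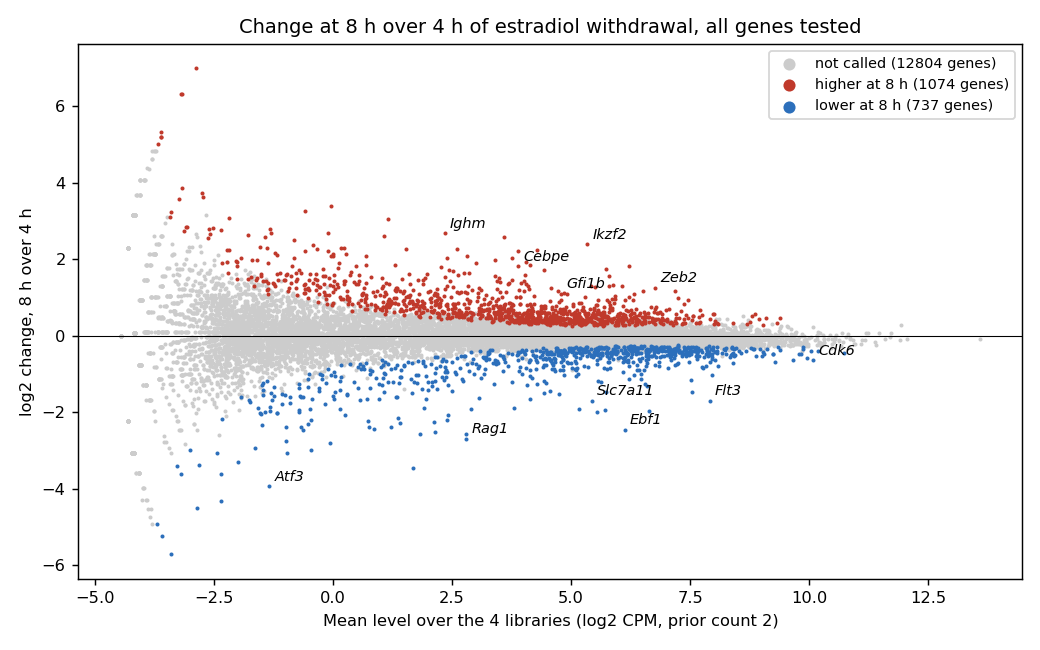
Log2 change at 8 h over 4 h (vertical axis) against the mean level over the 4 libraries in log2 CPM (horizontal axis) for the 14615 genes tested. Red points are the 1074 genes called higher at 8 h, blue points the 737 called lower and grey points those not called. Ikzf2 and Ebf1 are among the largest called changes at levels where counting error is small.

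Regulators and surface receptors led the increases among genes of at least 3 log2 CPM on average. Ikzf2, which encodes the Ikaros-family transcription factor Helios (ENSMUSG00000025997.10, chr1:69531214-69687245, minus strand), had 92.7 and 92.6 CPM at 8 h, against 18.2 and 17 CPM at 4 h, a log2 change of 2.396 ± 0.16 (SE; adjusted p = 6.93e-09). Its libraries agreed closely within each time. Cebpe, the C/EBP factor needed for terminal granulocyte maturation (ENSMUSG00000052435.6, chr14:54710360-54712174, minus strand), had 26.5 and 28.7 CPM at 8 h, against 8.45 and 7.22 CPM at 4 h, a 3.52-fold difference (adjusted p = 1.43e-07). Hp, which encodes the haemoglobin-binding protein haptoglobin (chr8:109575128-109579172, minus strand), had 21.3 and 20.8 CPM at 8 h, against 5.54 and 5.06 CPM at 4 h.

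Several of the other leading increases encode surface proteins of myeloid cells. Cd200r1, an inhibitory receptor for CD200 (chr16:44765736-44794978, plus strand), had 32.1 and 32 CPM at 8 h, against 6.82 and 6.91 CPM at 4 h, and its relative Cd200r4 had 42.5 and 36.5 CPM at 8 h, against 12.2 and 11.6 CPM at 4 h. The Cd200r genes are a family of similar sequences, so how reads were divided between them is uncertain. Vsir, which encodes the immune checkpoint protein VISTA, had 28.3 and 27.1 CPM at 8 h, against 7.52 and 5.87 CPM at 4 h. Clec5a, a lectin receptor of myeloid cells, was the most abundant of this group, with 141 and 138 CPM at 8 h, against 39.5 and 39.2 CPM at 4 h. In each of these 4 genes both 8 h libraries exceeded both 4 h libraries without overlap, which the choice of leading genes required. Further leading increases were Fgl2 (a secreted fibrinogen-like protein; log2 change 2.23 ± 0.15), Mtus1 (a microtubule-associated protein; 1.93 ± 0.15), Fgd4 (an exchange factor for Cdc42; 1.87 ± 0.15) and St8sia4 (a polysialyltransferase; 1.75 ± 0.14). These genes were all called in each of the 4 fits that left out 1 library.

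The leading decreases at that level included the lymphoid genes Ebf1 and Rag2 and the progenitor receptor gene Flt3. As lists, B cell genes were called in both directions and progenitor surface and secreted genes mainly higher, as given below. Ebf1, a transcription factor that specifies B cells (ENSMUSG00000057098.11, chr11:44617317-45008091, plus strand), had 29.8 and 29.8 CPM at 8 h, against 163 and 162 CPM at 4 h, a 5.45-fold lower level (log2 change -2.45 ± 0.10, adjusted p = 8.38e-12). Flt3, the receptor tyrosine kinase of early multipotent and dendritic progenitors (ENSMUSG00000042817.14, chr5:147330741-147400489, minus strand), had 136 and 131 CPM at 8 h, against 412 and 451 CPM at 4 h (log2 change -1.69 ± 0.16, adjusted p = 5.8e-07). Rag2, a subunit of the recombinase that rearranges antigen receptor genes (chr2:101624718-101632529, plus strand), had 18.3 and 19.2 CPM at 8 h, against 58 and 82.6 CPM at 4 h. Its neighbour Rag1, the catalytic subunit (chr2:101638282-101649501, minus strand), had 3.02 and 2.5 CPM at 8 h, against 13.7 and 21.9 CPM at 4 h. For both recombinase genes 4 h library B was the highest, and the 8 h libraries lay below both 4 h libraries. Sdc1, which encodes the proteoglycan syndecan-1, had 50.7 and 50.7 CPM at 8 h, against 178 and 219 CPM at 4 h.

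Slc7a11, the transport subunit of the cystine/glutamate antiporter, had 24.4 and 23.9 CPM at 8 h, against 73.4 and 82.4 CPM at 4 h (log2 change -1.69 ± 0.23, adjusted p = 4.45e-05). Pmepa1, a feedback inhibitor of TGF-beta signalling, had 7.19 and 7.28 CPM at 8 h, against 26 and 27.5 CPM at 4 h. Other leading decreases were Samd4 (an RNA-binding translational repressor; log2 change -1.98 ± 0.17), Dab2 (an endocytic adaptor; -1.93 ± 0.17) and Ptprm (a receptor phosphatase; -1.66 ± 0.21). Plekha7 (a junction protein; -1.62 ± 0.19), Gfra1 (a co-receptor for the growth factor GDNF; -1.53 ± 0.22) and Slc9a9 (an endosomal sodium/proton exchanger; -1.50 ± 0.13) completed them. The 12 leading decreases, of which Rag1 is not one because of its low level, were called in each of the 4 fits that left out 1 library.

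**Figure D2:**
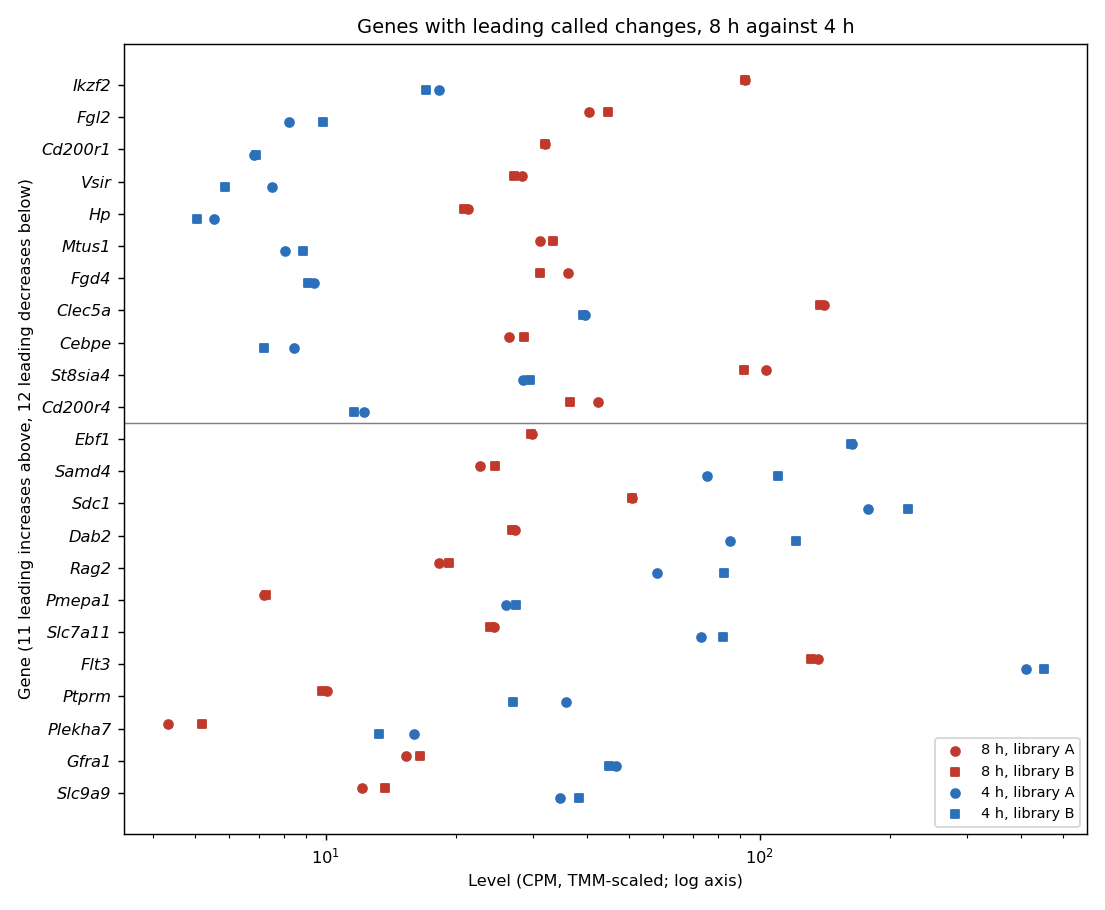
Level of 11 leading called increases (upper rows) and the 12 leading called decreases (lower rows) in each library, in CPM on a log axis. Both were taken from genes of at least 3 log2 CPM on average, and some genes of lower level changed more. Red marks are 8 h and blue marks 4 h libraries, circles library A and squares library B. In every row the red marks lie on one side of the blue ones, from Ikzf2 to Slc9a9, because genes were chosen for that.

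Transcripts of the switch itself did not pass the test between 8 h and 4 h. Hoxa9 had 197 and 190.2 CPM at 8 h, against 228 and 192 CPM at 4 h (log2 change -0.12 ± 0.10, adjusted p = 0.527; log2 change 0.0105 without 4 h A), and Esr1, the gene of the oestrogen receptor, had 54.3 and 53.5 CPM at 8 h, against 60.3 and 57.3 CPM at 4 h (log2 change -0.13 ± 0.09, adjusted p = 0.437). Reads from the fusion transcript may be counted in both rows. A change in protein activity after withdrawal is not read by these counts. Meis1, the HoxA9 cofactor, had 22.5 and 23.9 CPM at 8 h, against 18.1 and 19.95 CPM at 4 h (adjusted p = 0.142), and Myc, a driver of growth, had 456 and 444 CPM at 8 h, against 443 and 435 CPM at 4 h (adjusted p = 0.886). Kit had 491 and 467 CPM at 8 h, against 512 and 533 CPM at 4 h (adjusted p = 0.532). Cd34, a progenitor surface marker, had 2465 and 2497 CPM at 8 h, against 2808 and 3054 CPM at 4 h (adjusted p = 0.0971, and 0.0388 with the replicate block on the column letter). For Meis1, Myc, Kit and Cd34 the 8 h libraries lay on one side of the 4 h libraries, but by less than the test required. Such separation held for 8244 of the 14615 genes tested.

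Haematopoietic transcription factors changed in both directions. Of 49 tested, 18 (36.7%) were higher at 8 h and 9 (18.4%) lower, beside 7.35% and 5.04% of all genes, with a median log2 change of 0.08. The counts of the following lists stand beside the same shares of all genes. The examples of this and the following lists were chosen after their values were seen. Besides Ikzf2 and Cebpe, the increases included Cebpd (log2 change 1.51 ± 0.21), a further C/EBP factor, and Zeb2, a repressor needed in several haematopoietic lineages, which had 173 and 160.5 CPM at 8 h, against 71.3 and 68 CPM at 4 h. Runx1, a core binding factor of definitive haematopoiesis (chr16:92601466-92826149, minus strand), had 86.1 and 84.5 CPM at 8 h, against 44.9 and 41.9 CPM at 4 h (log2 change 0.97 ± 0.10). Gfi1b, a transcriptional repressor that acts in the erythroid and megakaryocytic lineages (chr2:28609450-28621982, minus strand), had 37.1 and 44.7 CPM at 8 h, against 21.7 and 16.2 CPM at 4 h (log2 change 1.11 ± 0.16, adjusted p = 8.77e-05). Spi1, which encodes PU.1, had 148 and 143 CPM at 8 h, against 105 and 84.6 CPM at 4 h (log2 change 0.62 ± 0.11, adjusted p = 0.00092). Gata2, a progenitor factor, had 164 and 158 CPM at 8 h, against 109.8 and 90.7 CPM at 4 h. In all of these both 8 h libraries were above both 4 h libraries.

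Members of the same list that fell included Sox4 (log2 change -0.89 ± 0.15), a progenitor factor of the SOX family, Hlf (-0.78 ± 0.12), a factor of haematopoietic stem cells, Runx3 (-0.62 ± 0.10), a relative of Runx1, and Irf8. Irf8, a determinant of the monocyte and dendritic lineages, had 51.5 and 50.6 CPM at 8 h, against 74.3 and 65.3 CPM at 4 h (log2 change -0.45 ± 0.10, adjusted p = 0.00343). Gfi1, the granulocytic relative of Gfi1b, had 80.5 and 86.1 CPM at 8 h, against 63.3 and 69.3 CPM at 4 h and was not called (adjusted p = 0.135), though it was without the filter on low counts, with the 10 libraries of 0 to 24 h and with only the 4 libraries, unpaired and paired (lowest adjusted p = 0.00801, in the paired fit). Myb, a regulator of progenitor proliferation, was called at 584 and 579 CPM at 8 h, against 379 and 473 CPM at 4 h (adjusted p = 0.0424), but the call was lost without 8 h library A (0.183), 8 h library B (0.155) or 4 h library A (0.257). Cebpa, which directs granulocyte-monocyte commitment, was called at 289 and 279 CPM at 8 h, against 233 and 224 CPM at 4 h (adjusted p = 0.0385), and lost its call when any 1 of the 4 libraries was left out (adjusted p = 0.224, 0.128, 0.0742 and 0.22 without 8 h A, 8 h B, 4 h A and 4 h B). Id2, an inhibitor of helix-loop-helix factors, had 8.35 and 11 CPM at 8 h, against 13.7 and 17.2 CPM at 4 h and was called (adjusted p = 0.0319), with the call lost without 8 h library A (0.324) or 4 h library B (0.298). In the list as a whole, leaving out 8 h A, 8 h B, 4 h A or 4 h B gave 12, 13, 13 and 13 members higher and 6, 6, 9 and 6 lower.

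The transcription factors did not share one course through the first day. Gfi1b averaged 2.6 ± 0.13, 19 ± 3.9, 40.9 ± 5.4, 13.4 ± 0.2 and 3.72 ± 0.079 CPM (SD, n = 2 each) at 0, 4, 8, 12 and 24 h and was highest at 8 h among these times. Ikzf2 averaged 40.3 ± 4.7, 17.6 ± 0.84, 92.7 ± 0.0079, 137 ± 29 and 126 ± 14 CPM (SD, n = 2 each) at 0, 4, 8, 12 and 24 h, and was lowest at 4 h. Cebpe averaged 8.85, 7.84, 27.6, 43.3 and 119.6 CPM at 0, 4, 8, 12 and 24 h, and kept climbing after 8 h. Zeb2 averaged 127, 69.7, 167, 191 and 161 CPM at 0, 4, 8, 12 and 24 h, and Myb averaged 964, 426, 582, 774 and 859.7 CPM at 0, 4, 8, 12 and 24 h. Irf8 averaged 18.6, 69.8, 51.1, 37.2 and 18.3 CPM at 0, 4, 8, 12 and 24 h, and Ebf1 averaged 126, 163, 29.8, 16.4 and 3.55 CPM at 0, 4, 8, 12 and 24 h. The log2 change at 4 h over 0 h was -1.20 ± 0.16 for Ikzf2 and 1.91 ± 0.10 for Irf8, and that at 12 h over 8 h was 0.56 ± 0.15 and -0.46 ± 0.10. These neighbouring comparisons share the 4 h or the 8 h libraries with the one between 8 h and 4 h, so they are set side by side only.

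**Figure D3:**
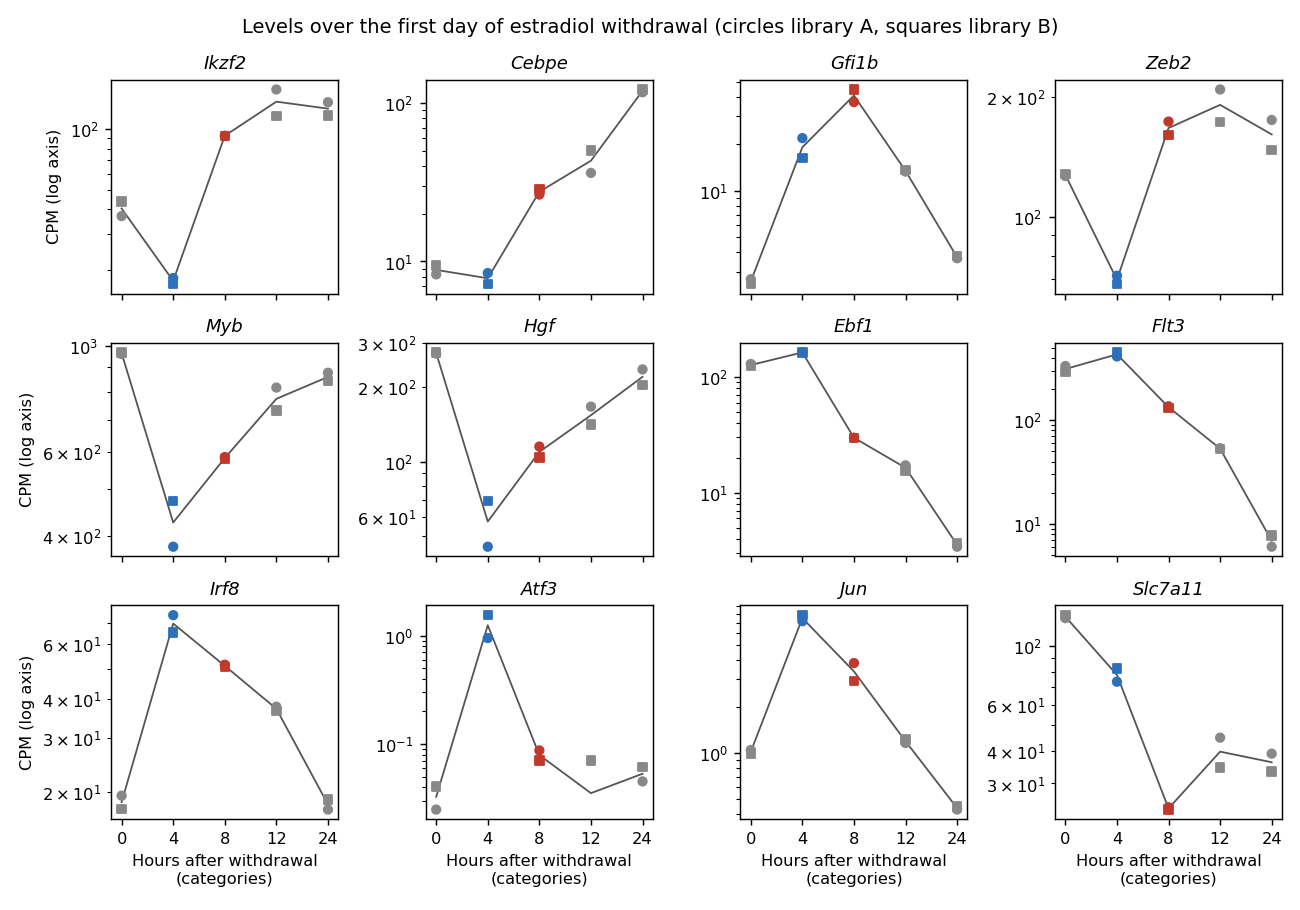
Level of 12 genes in CPM (log axes) at 0, 4, 8, 12 and 24 h of withdrawal, drawn as evenly spaced categories. Circles are library A and squares library B, red at 8 h, blue at 4 h and grey at the other times, and lines join the means of the 2 libraries. Ikzf2, Zeb2, Myb and Hgf are lowest at 4 h, and Gfi1b is highest at 8 h. The 12 h library A, in which Atf3 is at 0, is not drawn for that gene.

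Receptors and secreted factors of progenitors that were called were mainly higher at 8 h. Of 27 tested stem and progenitor surface and secreted genes, 9 were higher (33.3%) and 1, Flt3, was lower, with a median log2 change of 0.44. The other 17 were not called. Their summed level over all 27 was lower at 8 h, with 4562 and 4534 CPM, against 4914 and 5269 CPM at 4 h. Csf2rb, the shared beta chain of the receptors for GM-CSF, IL-3 and IL-5, had 229.9 and 211 CPM at 8 h, against 106 and 87.6 CPM at 4 h (log2 change 1.18 ± 0.10, adjusted p = 1.84e-07). Its close copy Csf2rb2, which serves IL-3 in mice, had 16.3 and 14.7 CPM at 8 h, against 5.15 and 3.18 CPM at 4 h, and reads of these 2 copies may be divided between them. Hgf, hepatocyte growth factor, had 115 and 104 CPM at 8 h, against 45.4 and 69.3 CPM at 4 h (log2 change 0.93 ± 0.17, adjusted p = 0.000961). The 4 h libraries of Hgf differed more between themselves than the 8 h ones. Hgf averaged 274, 57.3, 109, 154 and 220 CPM at 0, 4, 8, 12 and 24 h, so its 8 h level was still below that at 0 h. With 8 h A, 8 h B, 4 h A or 4 h B left out, 4, 5, 9 and 4 members were higher.

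Adhesion receptors and oxidase subunits were among the mature neutrophil genes that were higher at 8 h. Of 26 tested genes of secondary granules and mature neutrophils, 8 were higher (30.8%) and 1 was lower, with a median log2 change of 0.28. The 1 lower was Mmp8, neutrophil collagenase (log2 change -1.25, and -1.43 to -1.09 with 1 library left out). Cxcr2, the chemokine receptor that draws neutrophils into tissue, had 10.1 and 10.3 CPM at 8 h, against 3.51 and 2.8 CPM at 4 h (log2 change 1.70 ± 0.20, adjusted p = 8.02e-06). Itgb2 and Itgam encode the chains of the integrin Mac-1. Itgb2 had 54.8 and 52.9 CPM at 8 h, against 33.4 and 32.2 CPM at 4 h, and Itgam had 6.25 and 5.91 CPM at 8 h, against 3.36 and 3.64 CPM at 4 h. Ncf1, a cytosolic subunit of the phagocyte NADPH oxidase, had 309.5 and 303 CPM at 8 h, against 218 and 193 CPM at 4 h (log2 change 0.58 ± 0.11). In each of these 4 genes the 8 h libraries lay above the 4 h ones. The secondary granule gene Ltf, lactoferrin, was low, with 0.525 and 0.496 CPM at 8 h, against 0.93 and 0.445 CPM at 4 h (adjusted p = 0.688), and Lcn2, lipocalin, had 29.2 and 25.2 CPM at 8 h, against 37.2 and 28.6 CPM at 4 h (adjusted p = 0.378). The count of members higher was 7, 6, 8 and 4 without 8 h A, 8 h B, 4 h A and 4 h B.

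Of 15 tested members of the primary granule list 1 was called, Igsf6, which encodes a surface protein of the immunoglobulin superfamily. It had 12.2 and 13.1 CPM at 8 h, against 3.82 and 4.3 CPM at 4 h (log2 change 1.64 ± 0.15, adjusted p = 3.35e-07). No granule enzyme of the list was called in the fit of 20 libraries. The list's median log2 change was 0.18. Mpo, myeloperoxidase, had 4098 and 4466 CPM at 8 h, against 3733 and 3319.9 CPM at 4 h (log2 change 0.28 ± 0.23, adjusted p = 0.481), and Elane, neutrophil elastase, had 2.6 and 2.86 CPM at 8 h, against 2.22 and 1.97 CPM at 4 h (adjusted p = 0.481). Both granule enzymes were above the 4 h range in the 8 h libraries without passing the test. Mpo was called without the filter on low counts (adjusted p = 0.0165) and in the paired fit of only the 4 libraries, and both of these gave 3 members of the list higher. Mpo averaged 3803, 3527, 4282, 5794 and 10182 CPM at 0, 4, 8, 12 and 24 h, and Elane averaged 2.77, 2.09, 2.73, 4.1 and 18.2 CPM at 0, 4, 8, 12 and 24 h.

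Markers of other lineages moved in both directions. Of 27 tested monocyte, macrophage and dendritic cell genes, 4 were higher and 5 lower, and their summed level was 435 and 423 CPM at 8 h, against 846 and 1014 CPM at 4 h. Ccr2, the monocyte chemokine receptor, had 114 and 113 CPM at 8 h, against 249.95 and 373 CPM at 4 h (log2 change -1.46 ± 0.14, adjusted p = 4.24e-07), and together with Flt3 it made up most of that sum. Lgals3, the lectin galectin-3, had 3.89 and 3.21 CPM at 8 h, against 7.82 and 7.16 CPM at 4 h. The defining macrophage and dendritic genes C1qa, Batf3 and Xcr1 had no read in any of the 4 libraries. The 5 decreases were called in each fit that left out a library, while the 4 increases, Csf1r, Adgre1, Ctss and Cd68, gave 0 calls without 8 h library A and 3, 4 and 3 without 8 h B, 4 h A and 4 h B.

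Among 14 tested B cell genes, 4 were higher and 4 lower, with a median log2 change of 0.25. Those higher included Pax5 (log2 change 1.39, and 0.807 to 1.8 with 1 library left out). They also included Cd22 (1.32, and 1.05 to 1.55) and Cd79b (0.50, and 0.472 to 0.523). Dntt was among those lower (-0.65, and -0.709 to -0.598). Pax5 was low, with 1.55 and 0.78 CPM at 8 h, against 0.423 and 0.466 CPM at 4 h, and its 8 h libraries differed widely. Ebf1, Rag1 and Rag2 fell as given above. Ighm, the immunoglobulin heavy chain constant region, which also gives sterile transcripts outside B cells, had 13.8 and 11.6 CPM at 8 h, against 1.86 and 2.12 CPM at 4 h (log2 change 2.68 ± 0.16, adjusted p = 2.47e-09). The list gave 2, 3, 3 and 2 members higher and 3, 3, 4 and 4 lower without 8 h A, 8 h B, 4 h A and 4 h B. Of 11 tested megakaryocyte and platelet genes, 4 were higher and 1 lower. Itgb3, the integrin chain of the platelet fibrinogen and vitronectin receptors, had 105 and 87.5 CPM at 8 h, against 34.8 and 30.0 CPM at 4 h (log2 change 1.57 ± 0.12, adjusted p = 4.42e-08), while the platelet gene Pf4 had 0.765 and 0.591 CPM at 8 h, against 1.01 and 0.72 CPM at 4 h (adjusted p = 0.515). F2r, a thrombin receptor, fell, with 6.84 and 6.57 CPM at 8 h, against 16 and 16.4 CPM at 4 h. Without 4 h library B, 2 megakaryocyte genes were higher, and 3, 3 and 4 without 8 h A, 8 h B and 4 h A.

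Of 7 tested mast cell and basophil genes, 4 were higher and none lower. Hdc, which makes histamine, had 7.04 and 8.15 CPM at 8 h, against 3.78 and 4.72 CPM at 4 h (log2 change 0.84 ± 0.15), and Cpa3, the mast cell carboxypeptidase, had 207 and 205 CPM at 8 h, against 131 and 148 CPM at 4 h (adjusted p = 0.0129). The call of Cpa3 was lost without 8 h A (0.0844), 8 h B (0.0681) or 4 h A (0.0873), and the list gave 2, 2, 2 and 3 calls without 8 h A, 8 h B, 4 h A and 4 h B. Of 9 tested eosinophil genes 2 were higher, Il5ra, the IL-5 receptor chain (log2 change 1.84 ± 0.28), and Siglecf, a lectin receptor of eosinophils (log2 change 0.59 ± 0.12), and the defining granule gene Epx was at 0.0472 CPM or below in every library. Among 5 tested erythroid genes only Gata1, the erythroid and megakaryocytic factor, was called, with 1.49 and 1.72 CPM at 8 h, against 0.401 and 0.212 CPM at 4 h. The part of these lineages in the results above was not tested.

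**Figure D4:**
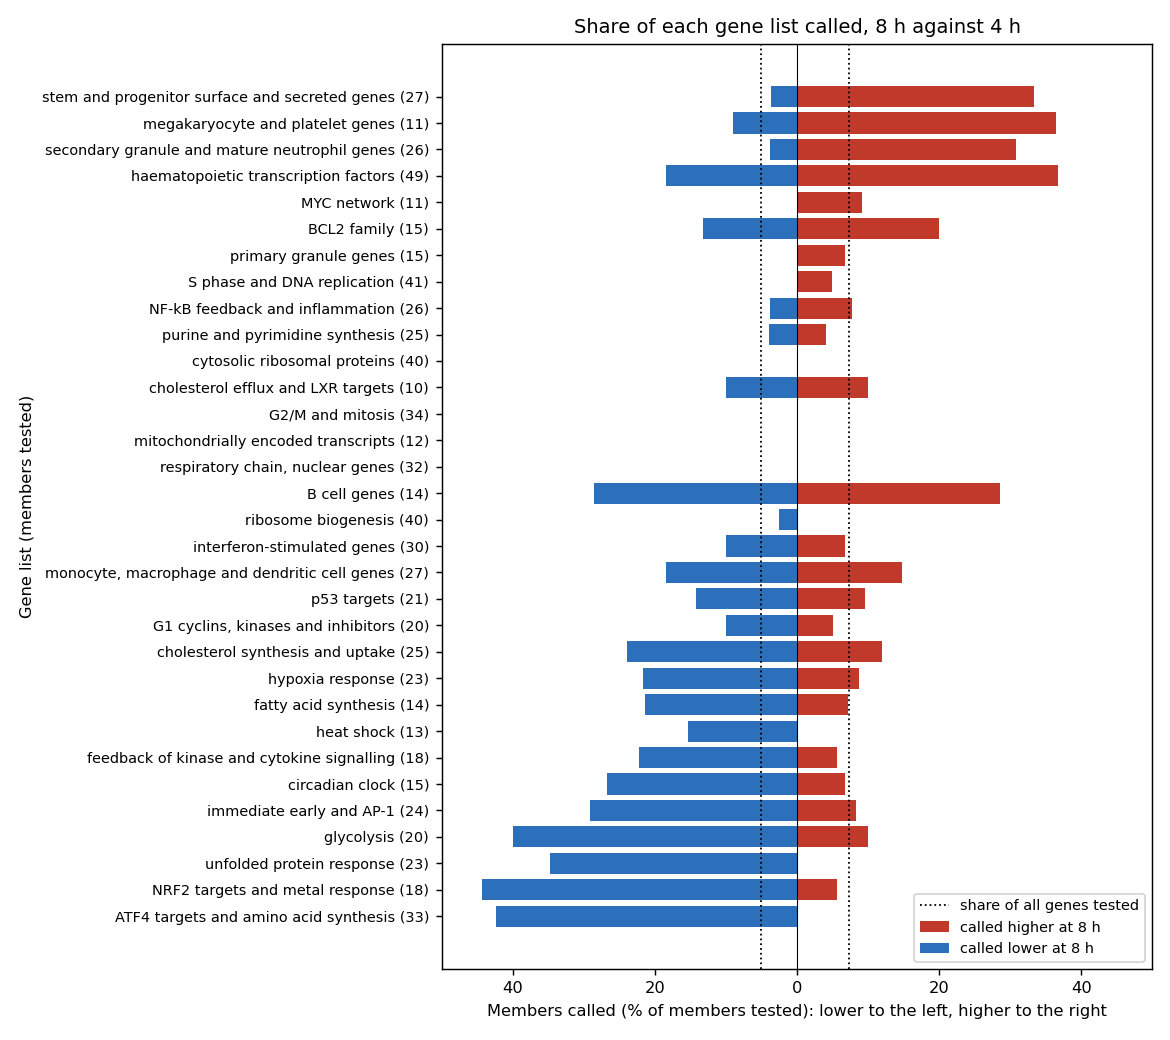
Percentage of the tested members of each gene list called lower (blue, to the left) or higher (red, to the right) at 8 h against 4 h. The number tested is in parentheses. Lists of at least 10 tested genes are shown, ordered by the percentage higher minus the percentage lower. The dotted lines mark the 5.04% called lower and the 7.35% called higher among all genes tested. ATF4 targets have 42.4% lower and none higher, and haematopoietic transcription factors 36.7% higher and 18.4% lower.

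Of 33 tested ATF4 targets and amino acid synthesis genes, 14 (42.4%) were lower at 8 h and none higher, beside 5.04% and 7.35% of all genes, and the median log2 change was -0.37. At an unadjusted p under 0.05 in edgeR's test 24 were lower and none higher, and DESeq2 called 15 lower and none higher. ATF4 is a transcription factor whose translation rises when amino acids are short or proteins misfold, and it switches on amino acid synthesis, import and transfer RNA charging. With C/EBP partners it binds a composite element, written here as TGATGNAA with N for any base. The promoter windows of 4 of the 14 are printed because they hold that element, shown in capitals, within 250 bases before to 50 bases after the transcription start. The sequences are RefSeq's for GRCm38.p6, read 5′ to 3′ on the strand of the gene.
Slc7a11 (chr3:50443564-50443863, minus strand): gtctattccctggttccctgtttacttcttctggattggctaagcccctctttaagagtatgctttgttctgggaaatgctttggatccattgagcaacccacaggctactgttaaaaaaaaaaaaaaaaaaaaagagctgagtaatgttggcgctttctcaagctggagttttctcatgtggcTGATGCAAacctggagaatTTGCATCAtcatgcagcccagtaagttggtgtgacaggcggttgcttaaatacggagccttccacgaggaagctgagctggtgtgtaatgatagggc
Trib3 (chr2:152344011-152344310, minus strand): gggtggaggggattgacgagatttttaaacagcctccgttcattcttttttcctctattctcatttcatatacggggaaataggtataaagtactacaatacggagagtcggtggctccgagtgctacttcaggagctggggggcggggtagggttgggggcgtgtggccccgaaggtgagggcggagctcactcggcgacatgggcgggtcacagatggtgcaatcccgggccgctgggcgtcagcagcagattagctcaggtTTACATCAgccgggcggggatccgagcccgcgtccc
Asns (chr6:7693160-7693459, minus strand): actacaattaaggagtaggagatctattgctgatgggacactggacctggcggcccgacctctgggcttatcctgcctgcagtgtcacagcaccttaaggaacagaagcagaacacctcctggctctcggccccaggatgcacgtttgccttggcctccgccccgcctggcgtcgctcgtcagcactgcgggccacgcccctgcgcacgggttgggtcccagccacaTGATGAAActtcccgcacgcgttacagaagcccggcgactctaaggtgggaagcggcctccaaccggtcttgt
Aars (chr8:111033592-111033891, plus strand): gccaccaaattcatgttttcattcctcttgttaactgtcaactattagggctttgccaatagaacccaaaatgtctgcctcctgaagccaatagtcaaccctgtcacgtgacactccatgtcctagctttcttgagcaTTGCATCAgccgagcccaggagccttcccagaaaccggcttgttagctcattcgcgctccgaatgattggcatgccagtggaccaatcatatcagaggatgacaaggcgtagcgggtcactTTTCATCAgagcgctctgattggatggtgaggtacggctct

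The Slc7a11 window held 2 matches, 1 on each strand, which began 66 and 47 bases before the start. The Asns match began 23 bases before its start. Trib3 had 1 match, on the opposite strand, which began 15 bases after the start, and Aars had 2 on the opposite strand, 112 bases before and 10 bases after it. On either strand the element was present in a window of 6 of the 13 members called lower that have one (46.2%) and of 3 of the 14 members not called that have one (21.4%). Counted the same way, by gene, it was present for 4.51% of all 27025 genes with a window and for 2.89% of the 10162 tested genes with one. The list names ATF4 targets, a choice that can by itself raise its shares above those of all genes. No difference between these shares was tested. Some genes have more than 1 window, and of all 32851 windows 3.97% held it. The element overlaps the half-site of other C/EBP and ATF dimers. A match describes the letters in a window, and factor binding was not measured.

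Atf4 itself had 153 and 171 CPM at 8 h, against 242 and 250.1 CPM at 4 h (log2 change -0.60 ± 0.10, adjusted p = 0.000341). Among importers and enzymes, Slc7a11 fell most, as given above. Asns, asparagine synthetase, had 55.3 and 58.3 CPM at 8 h, against 94.4 and 100.02 CPM at 4 h (log2 change -0.77 ± 0.09, adjusted p = 8.13e-06). Psat1, an enzyme of serine synthesis, had 650.0 and 646 CPM at 8 h, against 977 and 1040.1 CPM at 4 h, and Slc6a9, a glycine transporter, had 4.96 and 6 CPM at 8 h, against 11.9 and 9.96 CPM at 4 h. In Atf4, Asns, Psat1 and Slc6a9 the 8 h libraries lay below the 4 h ones. Trib3, a pseudokinase that damps ATF4, had 13.3 and 15.2 CPM at 8 h, against 42.3 and 35.5 CPM at 4 h (log2 change -1.45 ± 0.22, adjusted p = 0.000147). Ddit3, which encodes the stress factor CHOP, had 72.8 and 74.2 CPM at 8 h, against 116 and 104 CPM at 4 h. Aars, alanyl-tRNA synthetase, had 271 and 278 CPM at 8 h, against 405 and 375 CPM at 4 h (log2 change -0.51 ± 0.10). Phgdh, the first enzyme of serine synthesis, had 247 and 237 CPM at 8 h, against 262 and 237 CPM at 4 h and was not called (adjusted p = 0.928).

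Without 8 h A, 8 h B, 4 h A and 4 h B, 8, 10, 13 and 11 ATF4 members were called lower. The level of Asns averaged 92.9, 97.2, 56.8, 59.2 and 123 CPM at 0, 4, 8, 12 and 24 h, and that of Trib3 averaged 35.6, 38.9, 14.3, 10.4 and 27.4 CPM at 0, 4, 8, 12 and 24 h. Atf4 averaged 339, 246, 162, 207 and 433 CPM at 0, 4, 8, 12 and 24 h, and Slc7a11 averaged 129.9, 77.9, 24.1, 39.7 and 36.2 CPM at 0, 4, 8, 12 and 24 h. All 4 had a higher mean at 24 h than at 8 h. Summed over the tested members of the list, the level was 4334 and 4338 CPM at 8 h, against 5766 and 5654 CPM at 4 h.

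**Figure D5:**
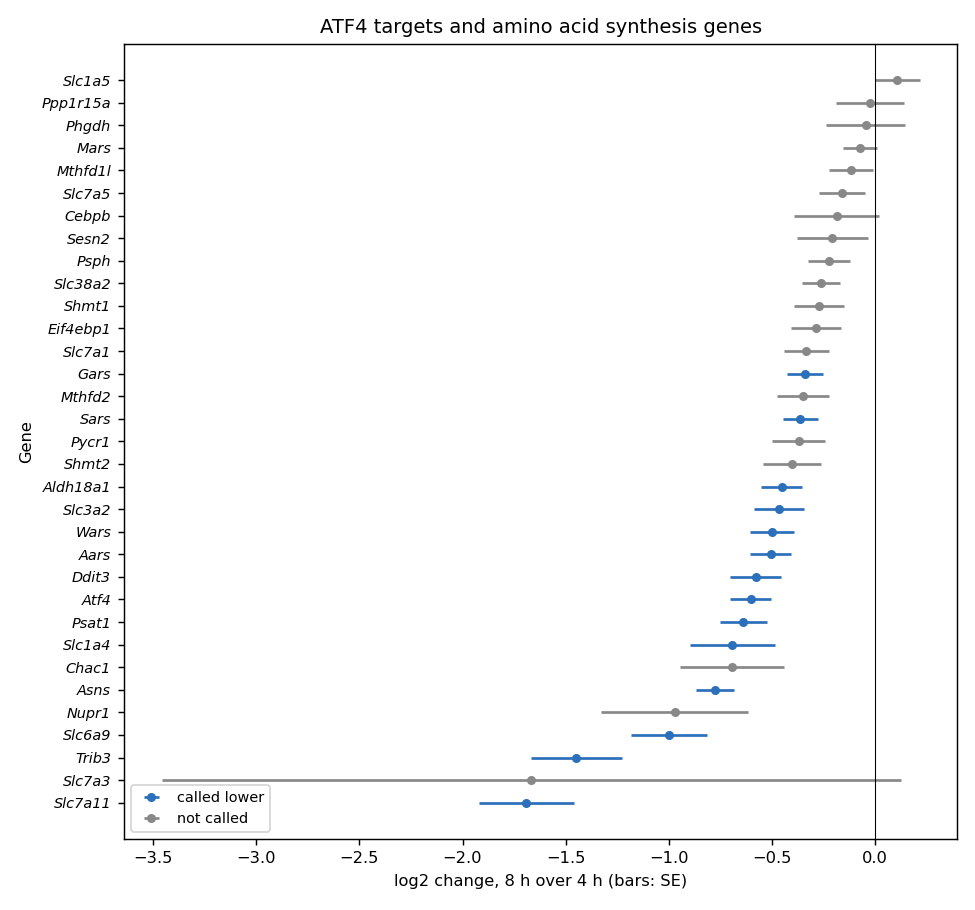
Log2 change at 8 h over 4 h (points) with its SE (bars) for the 33 tested ATF4 targets and amino acid synthesis genes, from the highest at the top to the lowest at the bottom. Blue points are the 14 members called lower and grey points those not called. Slc7a11, at the bottom, is at -1.69, and the wide bar above it belongs to Slc7a3, which had almost no counts.

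The decreases in other stress lists depended on single libraries. Of 23 tested unfolded protein response genes 8 were lower and none higher (median log2 change -0.21), but the count was 1, 5, 9 and 1 without 8 h A, 8 h B, 4 h A and 4 h B. Hspa5, the chaperone BiP of the endoplasmic reticulum, had 761 and 877 CPM at 8 h, against 1106 and 1324 CPM at 4 h (adjusted p = 0.00795), and its call was lost without 8 h library A (0.136) or 4 h library B (0.133). Of 18 tested NRF2 targets and metal response genes 8 were lower and 1 higher (median -0.38), with counts lower of 5, 2, 4 and 7 in the same order of libraries left out. Hmox1, haem oxygenase, had 4.31 and 4.54 CPM at 8 h, against 11.51 and 8.45 CPM at 4 h (log2 change -1.18 ± 0.18, adjusted p = 0.000161). Slc7a11 is a member of both the ATF4 and the NRF2 list.

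Of 20 tested glycolysis genes 8 were lower and 2 higher, beside 5.04% and 7.35% of all genes, with a median log2 change of -0.24. Pgk1, phosphoglycerate kinase, had 515 and 510.2 CPM at 8 h, against 703 and 725 CPM at 4 h (log2 change -0.48 ± 0.10, adjusted p = 0.00283). Hk2, the inducible hexokinase, moved the other way, with 90.7 and 88.2 CPM at 8 h, against 60.6 and 51.5 CPM at 4 h (log2 change 0.68 ± 0.11, adjusted p = 0.000322). Most of the decreases were small and close to the threshold: the count lower was 4 with RLE size factors, another way of scaling libraries, and 2, 1, 3 and 4 without 8 h A, 8 h B, 4 h A and 4 h B. Several glycolysis genes have processed pseudogenes that can share reads. Of 23 tested hypoxia genes 5 were lower and 2 higher, led by Egln1, an oxygen-sensing prolyl hydroxylase, with 85.8 and 82.1 CPM at 8 h, against 142 and 142 CPM at 4 h (log2 change -0.76 ± 0.09, adjusted p = 4.71e-06). The 5 became 1, 1, 2 and 2 without 8 h A, 8 h B, 4 h A and 4 h B.

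Immediate early and AP-1 genes are the first responders to growth factor and stress signals. Of 24 tested, 7 were lower (29.2%) and 2 higher (8.33%), beside 5.04% and 7.35% of all genes, with a median log2 change of -0.34. Atf3, a stress-induced repressor of that family (chr1:191170296-191218039, minus strand), had 0.0875 and 0.0709 CPM at 8 h, against 0.951 and 1.55 CPM at 4 h (log2 change -3.93 ± 0.56, adjusted p = 7.78e-05). It was low in all 4 libraries, so its counting error is large. Jun, a subunit of AP-1 (chr4:95049034-95052222, minus strand), had 3.83 and 2.93 CPM at 8 h, against 7.14 and 7.82 CPM at 4 h (log2 change -1.14 ± 0.23, adjusted p = 0.00182). Klf10, a zinc finger factor induced by TGF-beta, had 28.8 and 28.2 CPM at 8 h, against 39.5 and 44.5 CPM at 4 h (log2 change -0.56 ± 0.09). Fos, the AP-1 partner of Jun, had 5.88 and 6.9 CPM at 8 h, against 7.69 and 6.95 CPM at 4 h (adjusted p = 0.676). The 2 members higher were small changes near the threshold in edgeR's test. Zfp36 had a log2 change of 0.61 ± 0.17 (adjusted p = 0.0249), and Fosl2 one of 0.48 ± 0.15 (adjusted p = 0.0386). With 1 library left out the log2 change was 0.465 to 0.772 for Zfp36 and 0.435 to 0.532 for Fosl2. The 7 became 5, 4, 6 and 5 without 8 h A, 8 h B, 4 h A and 4 h B.

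For Atf3 and Jun the 4 h level was the high point of the first day. Jun averaged 1.02 ± 0.038, 7.48 ± 0.48, 3.38 ± 0.63, 1.19 ± 0.044 and 0.44 ± 0.014 CPM (SD, n = 2 each) at 0, 4, 8, 12 and 24 h, and Atf3 averaged 0.0327, 1.25, 0.0792, 0.0353 and 0.0533 CPM at 0, 4, 8, 12 and 24 h. The log2 change at 4 h over 0 h was 2.88 ± 0.27 for Jun and 5.11 ± 0.66 for Atf3, in comparisons that share the 4 h libraries. Pmepa1 and F2r were also highest at 4 h, with 4.07, 26.8, 7.23, 3.66 and 1.96 CPM at 0, 4, 8, 12 and 24 h for Pmepa1 and 1.28, 16.2, 6.71, 1.57 and 0.617 CPM at 0, 4, 8, 12 and 24 h for F2r.

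The list of feedback genes of kinase and cytokine signalling includes genes that are induced by ERK activity and restrain it. Of 18 tested, 4 were lower (22.2%) and 1 higher, with a median log2 change of -0.32. Dusp6, a phosphatase of ERK, had 60.2 and 65 CPM at 8 h, against 114 and 135 CPM at 4 h (log2 change -0.996 ± 0.18, adjusted p = 0.000891). Spry4, an inhibitor of receptor tyrosine kinase signalling, had 14.2 and 14.5 CPM at 8 h, against 31.5 and 33.1 CPM at 4 h (log2 change -1.17 ± 0.11, adjusted p = 6.51e-07). The groups did not overlap for either gene. Dusp6 averaged 154, 125, 62.6, 48.5 and 26.1 CPM at 0, 4, 8, 12 and 24 h, and Spry4 averaged 47.8, 32.3, 14.3, 11.57 and 3.8 CPM at 0, 4, 8, 12 and 24 h. The count lower was 2, 2, 2 and 3 without 8 h A, 8 h B, 4 h A and 4 h B, and 8 in the paired fit of only the 4 libraries.

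In the BCL2 family, which sets the threshold for programmed cell death, 3 of 15 tested genes were higher and 2 lower. Bmf, a BH3-only promoter of cell death, had 9.36 and 8.27 CPM at 8 h, against 4.06 and 3.26 CPM at 4 h (log2 change 1.27 ± 0.16, adjusted p = 2.02e-05). Bcl2l11, which encodes the BH3-only protein BIM, had 22.4 and 25.3 CPM at 8 h, against 38 and 38.7 CPM at 4 h (log2 change -0.69 ± 0.10, adjusted p = 0.000118). Bmf averaged 0.617, 3.66, 8.81, 1.56 and 0.402 CPM at 0, 4, 8, 12 and 24 h, and Bcl2l11 averaged 19.8, 38.4, 23.9, 19 and 14.7 CPM at 0, 4, 8, 12 and 24 h. The anti-apoptotic Bcl2 had 66.1 and 68 CPM at 8 h, against 64.5 and 67.5 CPM at 4 h (adjusted p = 0.952), and Mcl1 had 160.3 and 166 CPM at 8 h, against 183 and 223 CPM at 4 h (adjusted p = 0.13). The count higher was 2 without each of the 4 libraries in turn, and the count lower was 1 without 8 h library A and 2 without any other.

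Genes of growth and division are given here beside the 7.35% higher and 5.04% lower among all genes tested. Of 34 tested G2/M and mitosis genes none was called in the fit of 20 libraries (2 at an unadjusted p under 0.05), while DESeq2 and the fit of only the 4 libraries called 1 each, and of 41 tested S phase and replication genes 2 were higher (4.88%), Tk1 and Rfc2. Tk1, thymidine kinase, had 58.8 and 58.4 CPM at 8 h, against 40.0 and 38.5 CPM at 4 h (adjusted p = 0.00607), with the call lost without 8 h library A (0.0517) or 4 h library B (0.064). Rfc2, a subunit of the clamp loader, lost its call without 8 h A (0.151), 8 h B (0.154) or 4 h B (0.281). Of 40 cytosolic ribosomal protein genes none was called in the fit of 20 libraries (3 at an unadjusted p under 0.05) or by DESeq2, with a median log2 change of -0.13, and edgeR called 2 lower in the fit of only the 4 libraries. Of 40 ribosome biogenesis genes 1 was called, Nop56, a nucleolar protein of RNA modification, lower (median -0.15), and its call was lost when any 1 of the 4 libraries was left out (adjusted p = 0.204, 0.108, 0.0821 and 0.111 without 8 h A, 8 h B, 4 h A and 4 h B). DESeq2 called 3 of that list lower, the fit of the 10 libraries of 0 to 24 h called 7, and 13 were lower at an unadjusted p under 0.05. None of 32 nuclear respiratory chain genes and none of 12 mitochondrially encoded transcripts (median -0.20) was called in the fit of 20 libraries or by DESeq2, or passed an unadjusted p under 0.05. In the paired fit of only the 4 libraries edgeR called 1 of each lower, and without the filter on low counts it called 1 mitochondrially encoded transcript lower. In the MYC network 1 of 11 was called (9.09%), Mlx, a partner of factors of that network, higher. Cdk6, a G1 kinase, was abundant and lower at 8 h, with 858 and 890.1 CPM at 8 h, against 1255 and 1448 CPM at 4 h (log2 change -0.63 ± 0.13, adjusted p = 0.00271), which was no longer called with 4 h B left out (0.0521). Cdkn1a, the p21 inhibitor of cyclin-dependent kinases, had 27 and 25.7 CPM at 8 h, against 44.5 and 49 CPM at 4 h (log2 change -0.83 ± 0.17, adjusted p = 0.00314). Of 9 tested transcripts that mark RNA quality, such as nuclear-retained RNAs, 1 was called, Snhg12, a host RNA of small nucleolar RNAs, lower, and the call was lost without 8 h A (0.165) or 4 h B (0.074).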

How the data were processed

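The deposited table holds counts per gene: per the submitters' processing notes reads were aligned with STAR 2.4.2a to mm10 and handled with Picard, and the labels name a stranded, paired-end poly-A library. The counting program, its strand setting and its annotation are not given in the sources used here, so a gene and an antisense partner cannot be told apart. The 4 rows that name no gene were dropped, and the 4 libraries had 84.6% to 85.4% of their reads on genes.

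The 20 withdrawal libraries were fitted together in edgeR 4.0.16 (R 4.3.3, limma 3.58.1) on the deposited counts, with time as a factor, TMM scaling, edgeR's default filter on low counts and the quasi-likelihood test of 8 h against 4 h. Standard errors were taken from the F statistic. The alternatives included DESeq2 1.42.0.

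Genes named first are, by log2 change, the top 12 and bottom 12 of the called genes that averaged 3 log2 CPM or more, with no overlap between the times and an established symbol. To these were added 21 genes of the HoxA9 system and called members of the lists. The list members named are not always the largest called changes of their list. Some further list members were named after their values were seen, mostly as members that were not called. A few genes that these rules select are not reported here. The comparison, the genes and the 38 lists were chosen with earlier results of these data known, and lists are described by counts and medians with no set test. Positions are GENCODE M21 on GRCm38, which is mm10. The column letters A and B are not tied by the labels to replicate numbers.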

Additional observations from a re-analysis of the deposited data

How the results depend on the processing

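The 1811 calls (1074 higher, 737 lower, 456 of at least 2-fold) moved by at most 1.18, 1.22, 1.16 and 1.12-fold in that order with RLE size factors, without the filter on low counts, with only the 4 libraries, with the 10 libraries of 0 to 24 h, with DESeq2 or with the replicate block on the column letter. Leaving out 1 library gave 794 to 1740 calls, 467 to 1011 higher, 286 to 729 lower and 303 to 470 of at least 2-fold. The pairing was checked by correlating the A minus B differences of 4 h and 8 h across genes (r = 0.0567), and over the 45 pairs of times r ran from -0.158 to 0.215 and passed 0.1 in 7, so the letters were not taken to pair libraries. With the replicate block, 1930 genes were called. With the replicate block in a paired fit of only the 4 libraries, 2755 were called, 1634 higher and 1121 lower, from 13115 genes tested, and the cause was not tested. No direction reversed in any alternative among the 196 called genes of the tables behind the text, while Hoxa9, which was not called, changed sign without 4 h library A (log2 change from -0.234 to 0.0105 over the 4 fits that left out a library). Of these 196 called genes 85 kept their call in all 4 fits that left out a library. With 37911830 counts or more per library, the variance between the 2 libraries of a time exceeded counting variance, 6.31 times at 8 h and 35.7 times at 4 h on average over genes with at least 50 counts in the pair.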

Other observations

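Among all genes tested 7.35% were higher and 5.04% lower, and the counts below stand beside these shares. Of 25 tested genes of cholesterol synthesis and uptake 6 were lower, 3 higher and 16 not called. Nsdhl, a sterol dehydrogenase, had 26.5 and 27.2 CPM at 8 h, against 41.2 and 43.2 CPM at 4 h (log2 change -0.65 ± 0.10, adjusted p = 0.000159), and Idi1, which isomerises the isoprenoid unit, had 17.4 and 18.5 CPM at 8 h, against 24.3 and 29.1 CPM at 4 h (adjusted p = 0.00129). The count lower was 2, 3, 3 and 4, and the count higher 2, 1, 3 and 0, without 8 h A, 8 h B, 4 h A and 4 h B. Of 15 tested circadian clock genes 4 were lower and 1 higher. Bhlhe40, a repressor of the clock, had 8.53 and 8.79 CPM at 8 h, against 16.4 and 16.2 CPM at 4 h (log2 change -0.91 ± 0.12, adjusted p = 2.43e-05), and the count lower was 1, 3, 3 and 2 in the same order.

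Of 21 tested p53 targets 3 were lower and 2 higher, with Gdf15, a secreted stress factor, at 0.437 and 0.496 CPM at 8 h, against 1.2 and 1.33 CPM at 4 h (log2 change -1.44 ± 0.28, adjusted p = 0.00157). The count lower was 2, 2, 3 and 2, and the count higher 0, 0, 0 and 1, without 8 h A, 8 h B, 4 h A and 4 h B. Of 30 tested interferon-stimulated genes 2 were higher and 3 lower, at 1, 1, 1 and 1 higher and 0, 1, 4 and 0 lower in the same order. Oas3, an antiviral enzyme, had 1.64 and 1.63 CPM at 8 h, against 0.401 and 0.275 CPM at 4 h (log2 change 2.26 ± 0.44, adjusted p = 0.00158). Of 26 tested NF-kB feedback and inflammation genes 2 were higher and 1 lower, and Ccl3, a chemokine of myeloid cells, had 6.41 and 7.63 CPM at 8 h, against 3.04 and 1.48 CPM at 4 h (log2 change 1.63 ± 0.25, adjusted p = 0.000173). The NF-kB list gave 2, 2, 2 and 1 higher and 0, 0, 1 and 0 lower in the same order of libraries left out, and without the filter on low counts 5 were higher and 6 lower. Of 8 tested oestrogen receptor targets 1 was called, Xbp1, a factor of the unfolded protein response, lower, and the call was lost without 8 h A (adjusted p = 0.266) or 4 h B (0.159).

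Of 14 tested fatty acid synthesis genes 1 was higher and 3 lower, with 0, 0, 1 and 0 higher and 2, 1, 2 and 1 lower without 8 h A, 8 h B, 4 h A and 4 h B. Of 10 cholesterol efflux and LXR targets 1 was higher and 1 lower, with no call higher in any of these 4 fits and 1, 0, 1 and 1 lower. Of 13 heat shock genes 2 were lower and none higher (4 lower and none higher at an unadjusted p under 0.05, with DESeq2 calling 2 lower and none higher), and the count lower was 1, 1, 3 and 0. Of 25 purine and pyrimidine synthesis genes 1 was higher and 1 lower, with 0, 1, 1 and 0 higher and 0, 0, 1 and 0 lower. Of 20 genes of G1 cyclins, kinases and inhibitors 1 was higher and 2 lower, with 1, 1, 0 and 1 higher and 2, 2, 2 and 1 lower. None of 7 tested T and NK cell genes was called in the fit of 20 libraries or by DESeq2, 2 were lower at an unadjusted p under 0.05, and the paired fit of only the 4 libraries called 2 lower.

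One row of the table carries an identifier that is not an Ensembl gene and that the annotation used here does not name. It had 1.97 and 1.75 CPM at 8 h, against 0.761 and 0.614 CPM at 4 h (log2 change 1.43 ± 0.30, adjusted p = 0.00284 in edgeR's quasi-likelihood test).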
